A study of Mus musculus with 6 samples.

Results

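Reads of 5 genes among the 38924 in the deposited count tables were followed: *Lilrb4*, the gene of the sort marker ILT3; *Gp49a*, the row of a near-identical gene copy that overlaps it; and *Ptpn6*, *Ptpn11* and *Inpp5d*, which encode the phosphatases SHP-1, SHP-2 and SHIP-1. They were chosen by name for their place in one signalling route, with earlier results of these data known. All 5 were found and passed the filter on low counts. The libraries come from untreated wild-type mice of both sexes, 10 to 16 weeks old, whose spleen and mesenteric lymph node cells were enriched for CD25+CD4+ cells magnetically before a flow cytometry sort for surface ILT3. There were 3 ILT3+ and 3 ILT3- samples, each sequenced from 1 ng of total RNA. The labels do not say whether samples came from separate animals or from pools, so p-values reflect only how these samples vary, and that variation may be technical.

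ILT3 is an inhibitory member of the leukocyte immunoglobulin-like receptors, a family best known from myeloid cells, and carries immunoreceptor tyrosine-based inhibitory motifs (ITIMs) in its cytoplasmic tail. When SRC family kinases phosphorylate the tyrosine of an ITIM, the motif binds the SH2 domains of SHP-1 and SHP-2, which remove phosphate from signalling proteins, or of SHIP-1, which removes a phosphate from the membrane lipid PIP3. SHP-1 and SHIP-1 are made mainly in blood cells, while SHP-2 is made in most tissues.

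In the mouse the receptor gene exists as a pair of neighbouring copies on chromosome 10, and the tables count them in rows that overlap. The *Lilrb4* row spans chr10:51480640-51496613 and the *Gp49a* row spans chr10:51480632-51486316 (GRCm38, plus strand). In the GENCODE annotation of that build, release 21, the copy *Lilr4b* (formerly Gp49a) has 6064 bases within the *Lilrb4* row and 5685 within the *Gp49a* row. The copy *Lilrb4a* (formerly Gp49b, ILT3) lies with all 5656 bases in the *Lilrb4* row and with 0 in the *Gp49a* row. The *Lilrb4* row can therefore take reads of both copies, and the *Gp49a* row covers 1 of them.

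**Figure D1:**
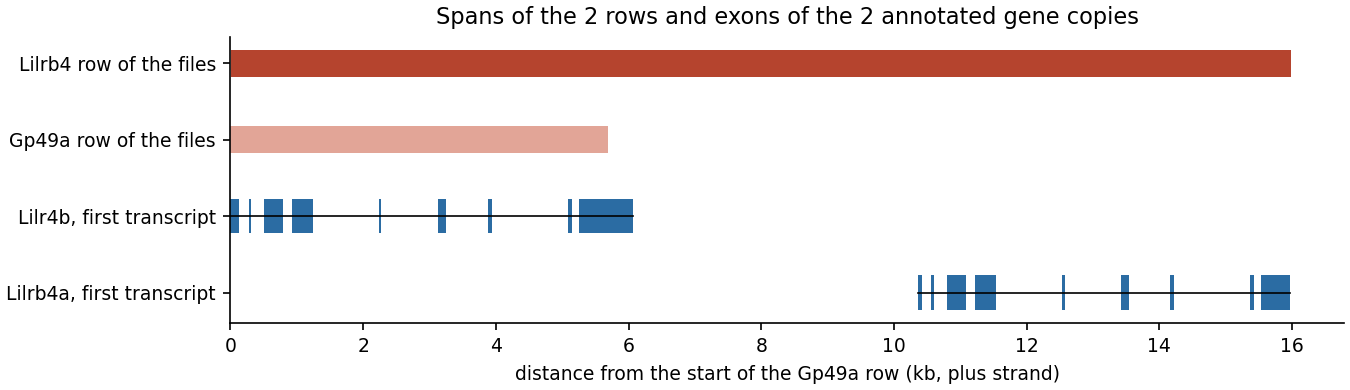
Spans of the Lilrb4 and Gp49a rows of the count tables and the exons (blocks) of the first annotated transcript of the Lilr4b and Lilrb4a copies, by distance in kb from the start of the Gp49a row. The Lilrb4 row covers both copies, whereas the Gp49a row ends inside the last exon of Lilr4b and reaches no base of Lilrb4a.

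The cytoplasmic tails show what separates the copies, since the inhibitory motifs are in only one of these annotated transcripts. The stretches below start at the same base of the aligned tails. Capitals mark the codons of the ITIMs in *Lilrb4a* (chr10:51495994-51496244, joined over exons 8 and 9) and, in *Lilr4b* (chr10:51485713-51485760), the 2 bases by which a run of C is longer and the stop codon. The plus strand is printed, 5′ to 3′, from the GRCm38 annotation.
Lilrb4a tail: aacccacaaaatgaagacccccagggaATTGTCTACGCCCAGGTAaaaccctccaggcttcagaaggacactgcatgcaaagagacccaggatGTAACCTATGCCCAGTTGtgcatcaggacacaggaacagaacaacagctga
Lilr4b tail: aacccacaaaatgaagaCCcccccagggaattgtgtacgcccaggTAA
The run of C has 5 bases in *Lilrb4a* and 7 in *Lilr4b*. The *Lilrb4a* tail holds 2 matches to the ITIM and the *Lilr4b* tail holds 0 in its reading frame. The encoded proteins have 335 and 303 residues.

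Outside the tail the copies are nearly the same, which bears on how reads are assigned. Over the coding parts of exons 1 to 7, which precede the printed tails, 829 of 864 aligned bases (95.9%) were identical. The last 120 bases of exon 3, which encodes part of an immunoglobulin-like domain, show how the differences cluster (chr10:51491599-51491718 for *Lilrb4a* and chr10:51481305-51481424 for *Lilr4b*, GRCm38, plus strand; capitals mark the 9 bases that differ).
Lilrb4a exon 3: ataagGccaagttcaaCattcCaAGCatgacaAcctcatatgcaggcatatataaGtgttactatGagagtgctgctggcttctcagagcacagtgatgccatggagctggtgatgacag
Lilr4b exon 3: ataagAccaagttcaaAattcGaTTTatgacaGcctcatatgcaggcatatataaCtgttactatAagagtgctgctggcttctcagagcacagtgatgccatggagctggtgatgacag
All 9 differences fall in the first part of the stretch, and its second part is the same in both copies. Of all 50-base windows along the *Lilrb4a* transcript, 27.6% also occur in *Lilr4b*, and 20.6% of those along *Lilr4b* occur in *Lilrb4a*. A read that lies within such a window matches both copies.

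Libraries held 9334370 to 13648274 total gene reads, of which 24.0% to 28.3% were intronic and 79.4% to 81.8% unique by the deposited columns. Values are CPM of total gene reads, that is counts scaled to library size with TMM factors (trimmed mean of M values), unless another column is named. At these depths 3 reads correspond to 0.218 to 0.360 CPM, a limit that covers counting error only. T cell identity was checked against fixed markers: summed over 8 T cell genes the ILT3- samples held 4382 to 5803 CPM and the ILT3+ samples 3604 to 4984, and 0 of 8 T cell and 0 of 5 regulatory T cell genes passed the edgeR quasi-likelihood test (at an unadjusted p under 0.05, 2 of the 8, *Trbc2* and *Cd5*, and 0 of the 5, where 13.8% of all genes had one; DESeq2 called *Cd5* alone). With the sample number as a block both were called lower (edgeR quasi-likelihood test, adjusted p = 0.0123 for *Trbc2* and 0.0146 for *Cd5*). *Foxp3*, the lineage factor of regulatory T cells, had 862 ± 233 CPM (SD, n = 3) in ILT3- and 861 ± 127 in ILT3+ samples.

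The *Lilrb4* row checks the sort, because its protein was the sort marker and the direction is fixed by the gate. It had 3.24, 4.32 and 5.81 CPM in ILT3- samples 1, 2 and 3, and 304, 284 and 407 CPM in ILT3+ samples 1, 2 and 3. Every ILT3+ sample was far above every ILT3- sample, and the groups did not overlap. Means were 4.46 ± 1.29 and 332 ± 65.8 CPM (SD, n = 3), a log2 fold change of 6.20 (SE 0.31, 95% interval 5.49 to 6.91; edgeR quasi-likelihood test, Benjamini-Hochberg adjusted p = 0.000327). Of 13694 genes tested, 35 had a larger log2 fold change. The row was not at 0 in the sorted negative cells: their 3 libraries held 162 *Lilrb4* reads in all, against 11876 in the ILT3+ libraries. Of the 162, 124 were intron reads, 56 were unique and 19 were unique exon reads. In such bulk samples, fewer cells with the transcript and less RNA per cell cannot be told apart, and the row can also take reads of the other copy.

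**Figure D2:**
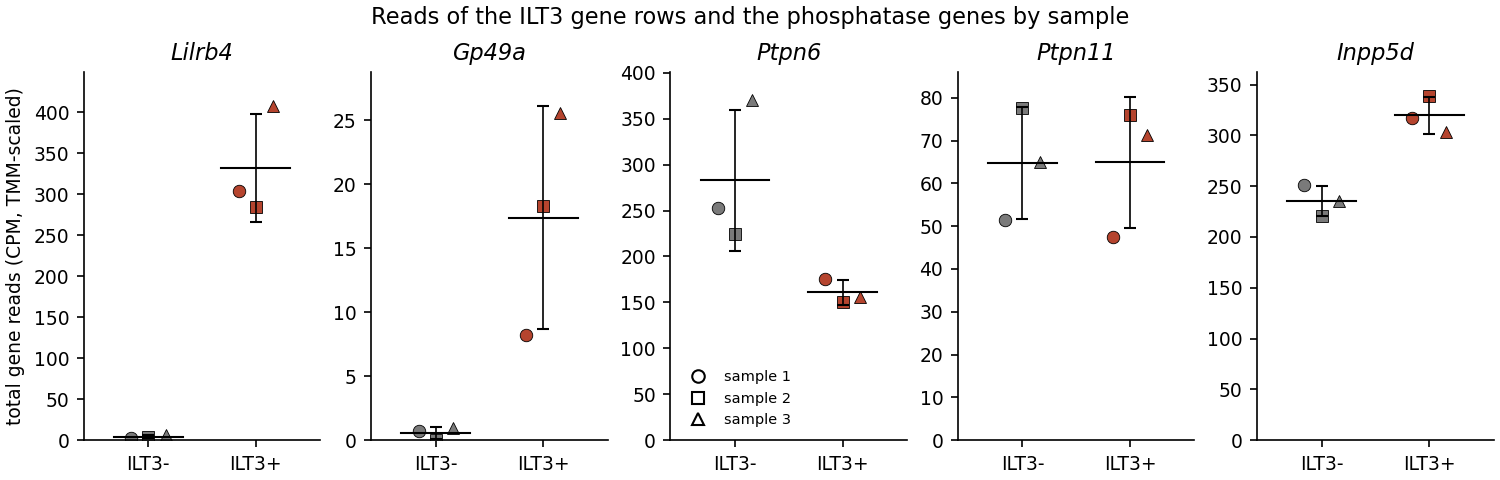
Total gene reads in CPM (linear axes from 0, a different scale in each panel) for the 5 genes in each ILT3- (grey) and ILT3+ (red) sample; the symbol gives the sample number, the line the mean and the bar 1 SD (n = 3). The groups are separate for Lilrb4, Gp49a, Ptpn6 and Inpp5d and overlap for Ptpn11.

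The *Gp49a* row, that of the copy with no ITIM in the reading frame of its annotated tail, was also higher in every ILT3+ sample, at a far lower level. It had 0.721, 0 and 0.945 CPM in ILT3- samples 1, 2 and 3, and 8.26, 18.3 and 25.6 CPM in ILT3+ samples 1, 2 and 3. All ILT3- values rest on 13 reads or fewer a library, and 0 reads in ILT3- sample 2 allow a level of up to 0.236 CPM. ILT3+ sample 1 had less of it than the other two ILT3+ samples, although its *Lilrb4* level lay between theirs. The log2 fold change was 4.96 (SE 1.02, 95% interval 2.6 to 7.31) and missed the threshold by a small margin (edgeR quasi-likelihood test, adjusted p = 0.0545). With the sample number as a block it passed (log2 fold change 5.10, adjusted p = 0.0295), and DESeq2, which called 7.08% of all genes, also called it (4.98, adjusted p = 1.65e-07). The row overlaps that of the sort gene and its copy is near-identical, so its direction is not independent of the sort. These tests therefore check the labels, as for *Lilrb4*.

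Of the 5 genes, 1 was called in this fit, *Lilrb4*, whose direction the sort set, where 2.31% of all tested genes were called. With the sample number as a block, 3 of 5 were called (*Lilrb4*, *Gp49a* and *Ptpn6*), against 6.81% of all genes. The groups did not overlap for 4 of the 5, which was also so for 20.2% of all genes. Both counts include *Lilrb4* and *Gp49a*, whose rows are tied to the sort. The count of called genes over the whole table, 316, rested on single libraries: leaving out the negative library 2 gave 67 and leaving out the negative library 3 gave 31, while leaving out the positive library 2 or 3 gave 53 or 57. *Lilrb4* was called with each library left out in turn (log2 fold change 6.03 to 6.44, adjusted p 0.00110 to 0.00922).

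Much of the signal in the *Lilrb4* row was intronic. The 3 ILT3- libraries held 3, 14 and 21 exon reads and 24, 41 and 59 intron reads, in the order of their numbers. The ILT3+ libraries held 1193, 1566 and 2301 exon reads and 2052, 1965 and 2799 intron reads. Introns thus took 88.9%, 74.5% and 73.8% of the row's reads in the negative libraries and 63.2%, 55.6% and 54.9% in the positive ones. The share was lower in each ILT3+ sample than in any ILT3- sample (79.1% ± 8.52 against 57.9% ± 4.60, SD, n = 3; two-sided exact permutation test, p = 0.1, the smallest that 3 against 3 samples allow; 0.250 adjusted over the 5 genes). The row has 1491 exon bases, while the first transcripts of *Lilr4b* and *Lilrb4a* have 1828 and 1381 exon bases within its span. The row's exons therefore cannot hold all of the copies' annotated exon sequence. Whether reads of the rest were counted as intron was not tested.

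Both kinds of read separated the groups in the *Lilrb4* row. Its log2 fold change was 7.04 for total exon reads, 7.44 for unique exon reads and 5.89 for intron reads (edgeR quasi-likelihood test, adjusted p = 0.00103, 0.00388 and 0.000123), where 2.05%, 1.85% and 0.689% of all genes tested on those columns were called. The exon change exceeded the intron change by 1.20 on the log2 scale (SE 0.38, 95% interval 0.34 to 2.05). This difference was not called over all genes (edgeR quasi-likelihood test of the read kind by group term, adjusted p = 1.00), and neither was that of any other of the 5 genes (1 of 10759 genes, 0.00929%, was called, and 366, or 3.40%, had an unadjusted p under 0.05).

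The *Gp49a* row had no unique intron read in any library, and its reads were mostly exonic. It held 4, 0 and 8 exon reads in the negative and 70, 187 and 268 in the positive libraries. Unique exon reads made up 1, 0 and 3 of these in the negative libraries and 50, 132 and 184 in the positive ones. Each unique exon read of the row also stood in the column of unique exon-exon junction reads. In the 6 libraries only 1.16% to 1.54% of genes with at least 50 unique exon reads had all of them in the junction column, so the row is counted unlike most. Its log2 fold change was 5.31 for exon reads and 6.31 for unique exon reads, and both passed (edgeR quasi-likelihood test, adjusted p = 0.0378 and 0.0289). For intron reads it was 3.95 and did not pass (adjusted p = 0.146).

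**Figure D3:**
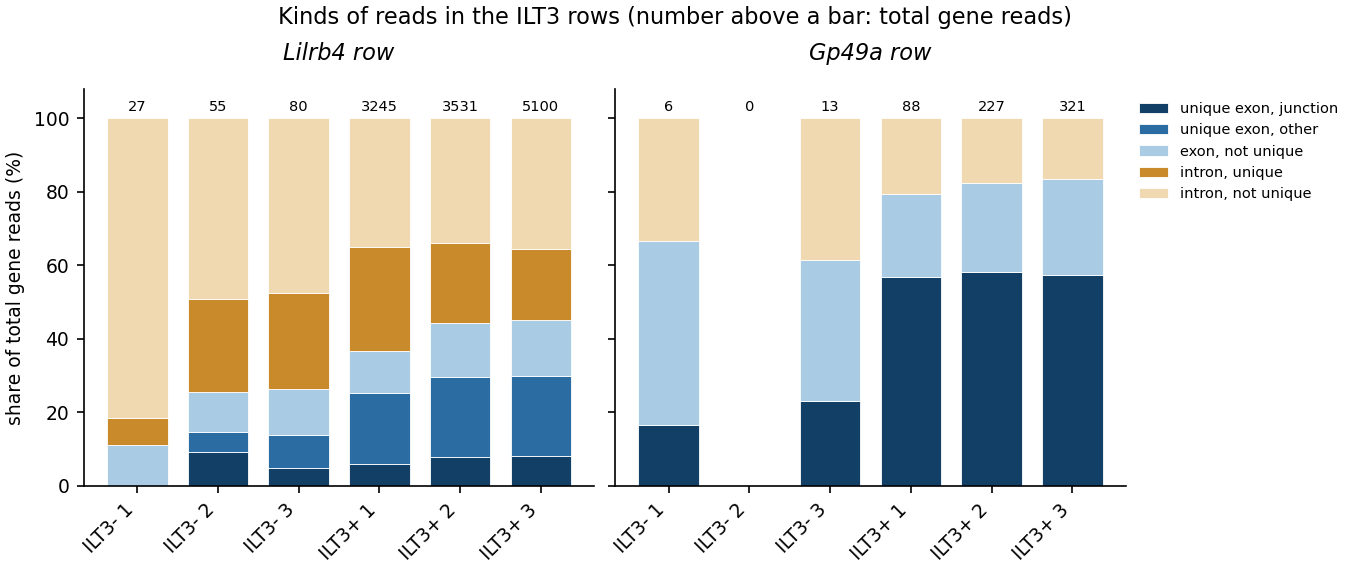
Share in percent of the total gene reads of the Lilrb4 row (left) and the Gp49a row (right) that were unique junction, other unique exon, other exon, unique intron and other intron reads, for each sample; the number above a bar is the total. Intron reads take 54.9% to 88.9% of the Lilrb4 row, and in the Gp49a row every unique read is a junction read.

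The *Lilrb4* row had a lower share of unique reads than the phosphatase rows: 34.6% over the ILT3- and 51.1% over the ILT3+ libraries, against 99.6% and 99.7% for *Inpp5d*. Within the ILT3+ libraries the *Gp49a* row took 2.64% (exact 95% interval 2.12 to 3.24), 6.04% (5.30 to 6.85) and 5.92% (5.31 to 6.58) of the total gene reads of both rows. Counted by unique exon reads the share was 5.75%, 11.2% and 10.8%. By both counts ILT3+ sample 1 had the lowest share, with an interval that did not reach those of samples 2 and 3; these intervals cover counting error only, since amplified reads are not independent molecules. Reads that match both copies could be divided in a way that differs from the transcripts' own proportions, so the shares describe the rows. With the reads of both rows added together, the log2 fold change was 6.11 (SE 0.31; edgeR quasi-likelihood test, adjusted p = 0.000423).

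Of the phosphatase genes, *Ptpn6* had lower values in ILT3+ samples. SHP-1, its product, restrains antigen receptor signalling in T and B cells. It had 253, 225 and 370.4 CPM in ILT3- samples 1, 2 and 3, and 176, 150.5 and 156 CPM in ILT3+ samples 1, 2 and 3. Each ILT3+ value was below each ILT3- value, and ILT3- sample 3 stood highest. Means were 283 ± 77.1 and 161 ± 13.4 CPM (SD, n = 3), a log2 fold change of -0.81 (SE 0.22, 95% interval -1.33 to -0.30). It was not called (edgeR quasi-likelihood test, adjusted p = 0.132). With the sample number as a block the gene passed (-0.78, adjusted p = 0.0464), as it did by DESeq2 (-0.82, adjusted p = 0.0226). Among all genes tested, 8.08% had a lower log2 fold change.

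The lower *Ptpn6* values were seen in exon and intron reads alike. The log2 fold change was -0.81 for exon reads, -0.82 for unique exon reads and -0.87 for intron reads, none of them called (edgeR quasi-likelihood test, adjusted p = 0.122, 0.105 and 0.570). The row (chr6:124720707-124738714, minus strand) had 87.7% unique reads over the ILT3- and 87.3% over the ILT3+ libraries. Introns held 10.4% of its reads on average in ILT3- and 9.46% in ILT3+ samples. T cell markers stood beside it as follows: the median log2 fold change of the 8 genes was -0.30 with 0 called, and *Cd5*, a T cell receptor brake that itself binds SHP-1, had 1033 ± 287 CPM in ILT3- and 545 ± 35.1 in ILT3+ samples (edgeR quasi-likelihood test, adjusted p = 0.0981, and 0.0146 with the block). Their part in the result was not tested. Without ILT3- sample 3, the highest for *Ptpn6*, the log2 fold change was -0.57 (adjusted p = 0.255).

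*Inpp5d* (chr1:87620312-87720507, plus strand) went the other way in its values. SHIP-1, its product, turns PIP3 into PI(3,4)P2 and so limits signals that run through PI3 kinase. It had 251, 221 and 235 CPM in ILT3- samples 1, 2 and 3, and 317, 339 and 303 CPM in ILT3+ samples 1, 2 and 3. All ILT3+ values were above all ILT3- values, with little spread in either group. Means were 236 ± 15 and 319.7 ± 18 CPM (SD, n = 3), a log2 fold change of 0.44 (SE 0.16, 95% interval 0.07 to 0.81), which was not called (edgeR quasi-likelihood test, adjusted p = 0.262, and 0.0791 with the block). The change was 0.53 for exon reads, 0.51 for unique exon reads and 0.42 for intron reads (adjusted p = 0.213, 0.197 and 0.678).

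*Ptpn11* (chr5:121130533-121191397, minus strand) had the same mean in both groups within its spread. SHP-2, its product, is the phosphatase that ITIM receptors share with growth factor and cytokine receptors, where it often promotes signalling. It had 51.5, 77.7 and 65.0 CPM in ILT3- samples 1, 2 and 3, and 47.4, 76.0 and 71.3 CPM in ILT3+ samples 1, 2 and 3. The groups overlapped throughout, and sample 1 was lowest in each. The log2 fold change was 0.00 (SE 0.25; edgeR quasi-likelihood test, adjusted p = 0.999), and its 95% interval of -0.58 to 0.58 does not exclude a moderate change either way.

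**Figure D4:**
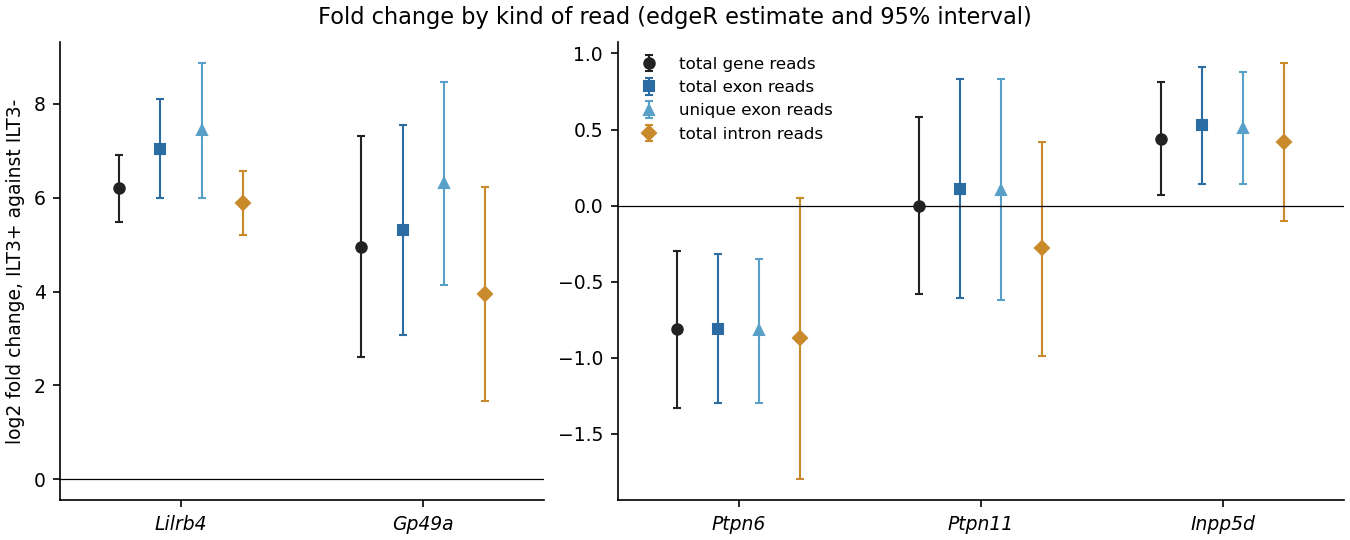
Log2 fold change of ILT3+ against ILT3- (edgeR quasi-likelihood estimate, bar: 95% interval) of each gene for total gene, total exon, unique exon and total intron reads; the left and right panels have different scales. Lilrb4 lies at 5.89 to 7.44 for all 4 kinds of read, Ptpn6 below 0 and Inpp5d above 0 for each, and Ptpn11 on both sides of 0.

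The ratios between phosphatase genes within a library depend neither on depth nor on scaling. The *Inpp5d* to *Ptpn6* ratio was 0.992, 0.982 and 0.635 in the negative libraries 1, 2 and 3, against 1.80, 2.25 and 1.94 in the positive libraries of the same numbers. All ILT3- samples had no more *Inpp5d* than *Ptpn6* reads, and all ILT3+ samples had more, by a mean factor between groups of 2.34 (log2 difference 1.22; two-sided exact permutation test, p = 0.1, the smallest that 3 against 3 samples allow; 0.300 adjusted over the 3 ratios). The other ratios overlapped between groups, although each differed in the same direction in 3 of 3 pairs of equal sample number. Over such pairs the exact sign permutation test gave p = 0.25 for each of the 3 ratios, the smallest it allows. *Ptpn6* to *Ptpn11* was 4.91, 2.90 and 5.70 in the negative libraries and 3.71, 1.98 and 2.19 in the positive ones (log2 difference -0.78, exact permutation p = 0.200, adjusted 0.300). *Inpp5d* to *Ptpn11* was 4.87, 2.85 and 3.62 in the negative libraries and 6.69, 4.46 and 4.25 in the positive ones (log2 difference 0.45, exact permutation p = 0.300, adjusted 0.300).

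**Figure D5:**
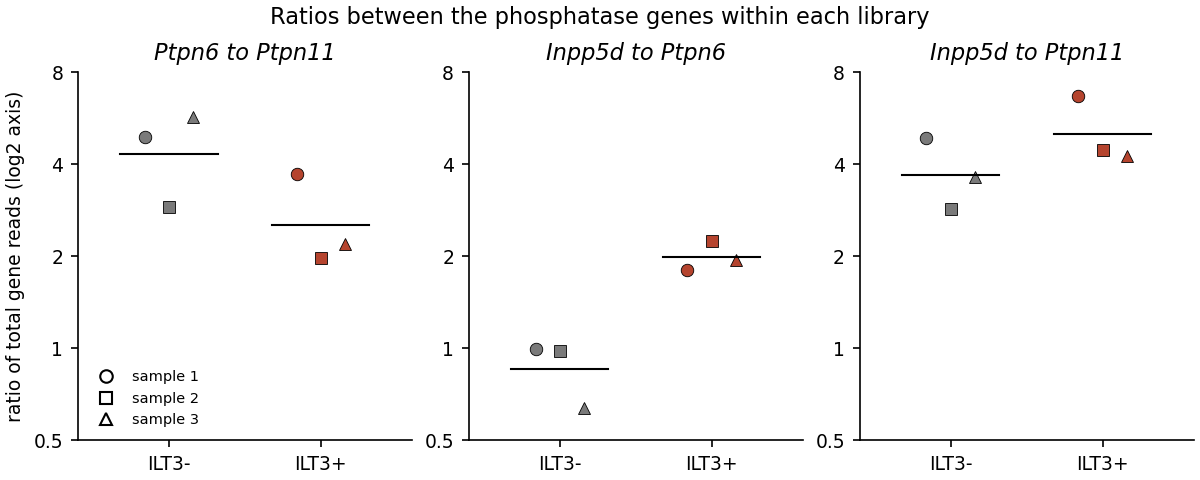
Ratio of total gene reads (log2 axis) between pairs of phosphatase genes in each ILT3- (grey) and ILT3+ (red) library; the line is the geometric mean. Inpp5d to Ptpn6 is 0.635 to 0.992 in ILT3- and 1.80 to 2.25 in ILT3+ libraries, and the other ratios overlap.

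Per length, only *Lilrb4*, whose rise the sort set, changed its place in the order of the gene means between the groups. The other genes kept the order *Ptpn6*, *Inpp5d*, *Ptpn11* and *Gp49a*. The level used here is the TMM-scaled CPM of total exon reads per kb of deposited exon length. In ILT3- samples *Ptpn6* stood first at 122 ± 28.5, *Inpp5d* had 23.5 ± 1.86, *Ptpn11* 8.63 ± 2.82, *Lilrb4* 0.899 ± 0.517 and *Gp49a* 0.227 ± 0.198 (SD, n = 3). In ILT3+ samples *Lilrb4* led at 126 ± 35.2, followed by *Ptpn6* at 69.7 ± 5.64, *Inpp5d* at 33.8 ± 2.50, *Ptpn11* at 9.30 ± 2.42 and *Gp49a* at 9.13 ± 4.78. Samples of neighbours in this order did not overlap, except *Lilrb4* and *Gp49a* in ILT3- and *Ptpn11* and *Gp49a* in ILT3+ samples. *Lilrb4* stood at 1.32, 1.69 and 2.51 times the *Ptpn6* level in ILT3+ samples 1, 2 and 3, and at 0.00289 to 0.0104 times in ILT3- samples. With unique exon reads the ILT3+ means were closer, at 103 ± 27.2 for *Lilrb4* and 74.0 ± 6.98 for *Ptpn6*. *Inpp5d* had 41.2 ± 2.88 by that count (SD, n = 3). The *Lilrb4* row has 1491 exon bases and takes reads of both copies, so its level per kb is that of the row.

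Other receptors of the family were counted mainly in 1 library. Of 9 LILR and PIR family genes found in the files, 2 passed the filter, *Lilrb4* and *Gp49a* themselves. *Pirb*, the ITIM receptor of the mouse most like human LILRB proteins, had 3, 0 and 0 reads in the negative libraries and 259, 1 and 11 in the positive ones. *Pira2*, a partner without ITIM, had 0 in each negative library and 227, 0 and 1 in the positive ones. *Lilra5*, an activating member, had 57, 0 and 0 in the positive libraries. ILT3+ sample 1 held nearly all of these reads. Near-identical family members can share them.

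Markers of myeloid cells, which express these receptors, moved in part with the sort. The 17 monocyte and macrophage genes summed to 93.5 to 168 CPM in ILT3- samples and to 1337, 99.6 and 121 in ILT3+ samples 1, 2 and 3. None of the 12 tested was called by edgeR's quasi-likelihood test (5 at an unadjusted p under 0.05, and DESeq2 called 0), and 3 were with the block (*Emr1*, *C1qb* and *C1qc*). Over all genes 13.8% had an unadjusted p under 0.05, and 6.81% were called with the block. *Csf1r*, the receptor that defines macrophages, had 27, 8 and 3 reads in the negative and 2833, 28 and 5 in the positive libraries. *Cx3cr1*, the list's most abundant gene in ILT3- samples and the largest part of its sum there, had 101 ± 26.7 CPM in ILT3- and 87.2 ± 28.7 in ILT3+ samples (log2 fold change -0.21, adjusted p = 0.841). *Lilrb4* had 304 CPM in ILT3+ sample 1 and a log2 fold change of 6.26 without that sample (edgeR quasi-likelihood test, adjusted p = 0.00114). The part of cells with these marker genes in the *Lilrb4* level was not tested.

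The 16 dendritic cell genes summed to 168 to 199.6 CPM in ILT3- and 1762 to 2956 CPM in ILT3+ samples. Of 11 tested, 8 rose (edgeR quasi-likelihood test), where 1.96% of all genes rose. They included the MHC class II pathway genes *Cd74*, *H2-Aa*, *H2-Ab1*, *H2-Eb1* and *Ciita*, which are not particular to dendritic cells. The others were *Batf3*, *Ccl22* and *Fscn1*. *Cd74* and *H2-Aa* were the most abundant. *Cd74* alone had 1724, 1230.3 and 1148 CPM in ILT3+ samples 1, 2 and 3, most of the sum. At an unadjusted p under 0.05 were 9 of the 11, against 13.8% of all genes. *Cd74*, the MHC class II chaperone, had 139 ± 9.62 CPM in ILT3- and 1368 ± 311 in ILT3+ samples (log2 fold change 3.29, adjusted p = 0.000946). Of the defining genes, *Cd209a* had 0 reads in all 6 libraries, *Clec9a* had 1 read in all, *Flt3* had 15 to 26 reads a library in both groups, and *Itgax* had 49, 0 and 1 reads in the ILT3+ samples. *Zbtb46*, a dendritic cell transcription factor, had 12, 125 and 145 reads in the negative and 126, 319 and 451 in the positive libraries, and was called with the block. *Xcr1*, a receptor of cross-presenting dendritic cells, had 0, 16 and 20 reads in the negative and 0, 85 and 140 in the positive libraries. *Batf3* had 154, 162 and 186 and *Ccl22* 111, 114 and 116 reads in ILT3+ samples. The part of these genes' cells in the *Lilrb4* and *Gp49a* levels was not tested.

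Of the remaining marker lists, those of erythroid and of NK and innate lymphoid cells held called genes. Of 4 tested erythroid genes 2 rose (*Hba-a1* and *Hba-a2*, edgeR quasi-likelihood test) and 4 with the block or by DESeq2, with sums of 0.550 to 5.29 CPM in ILT3- and 42.1 to 203 in ILT3+ samples. Over all genes 1.96% rose, 4.18% with the block and 5.18% by DESeq2. *Kit*, the only 1 of the 5 NK and innate lymphoid cell genes that was tested, rose from 19.0 ± 5.51 to 179 ± 48.7 CPM (edgeR quasi-likelihood test, adjusted p = 0.00520). Of that list, *Klrb1c* had 23.9, 0.161 and 0.638 CPM in ILT3+ samples 1, 2 and 3, and *Klra8* had 0 reads. None of the tested CD8 T cell (2), B cell (4), plasma cell (4) or mast cell and basophil (2) genes was called by edgeR or by DESeq2 (1 B cell and 2 plasma cell genes had an unadjusted p under 0.05), 0 neutrophil genes passed the filter, and B cell genes summed to 20.7 to 29.8 CPM in ILT3- and 28.6 to 64.5 in ILT3+ samples.

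Among the kinases that phosphorylate ITIMs, *Lyn* rose. *Lyn* is the SRC family kinase best known for this step in B cells and myeloid cells. It had 11.3, 15.5 and 20.8 CPM in ILT3- samples 1, 2 and 3, and 95, 88.5 and 95.1 CPM in ILT3+ samples, so the groups were far apart (log2 fold change 2.55, SE 0.26; edgeR quasi-likelihood test, adjusted p = 0.00663). *Lck*, the main kinase of this family in T cells, had 983 ± 192 and 757 ± 113 CPM (log2 fold change -0.38, adjusted p = 0.525) and remained the more abundant by count. Of 8 SRC family genes 1 rose and 0 fell (median log2 fold change 1.34, against -0.02 over all genes), and 2 rose with the block, *Lyn* among them. Over all genes 1.96% rose, and 4.18% with the block. At an unadjusted p under 0.05 were 2 of the 8, against 13.8% of all genes (edgeR quasi-likelihood test). On exon reads alone 0 of the 8 were called.

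Of 28 genes of other inhibitory receptors, not all of which carry an ITIM, 15 were tested. Of these, 3 rose: *Klrg1*, *Cd200r1* and *Klrb1b*. Over all genes 1.96% rose. At an unadjusted p under 0.05 in either direction were 6 of the 15, against 13.8% of all genes (edgeR quasi-likelihood test). *Klrg1*, a cadherin receptor found on differentiated T and NK cells, went from 32.4 ± 19.4 to 281 ± 40.1 CPM (SD, n = 3; log2 fold change 3.12, adjusted p = 0.0127). *Cd200r1*, the receptor for CD200, went from 37.8 ± 9.26 to 95.3 ± 16.5 CPM (1.34, adjusted p = 0.0348). *Klrb1b*, an NK receptor, went from 4.37 ± 4.02 to 129.8 ± 10.8 CPM (4.84, adjusted p = 0.0392; edgeR quasi-likelihood test for all). The list's median log2 fold change was 0.46. With the block 5 rose and 2 were lower, *Cd5* among the latter, where 4.18% of all genes rose and 2.62% were lower. The 3 calls rested on single libraries: 1 was left when the negative library 2 or the positive library 1 was dropped, and 0 when the negative library 3 or either of the positive libraries 2 and 3 was dropped.

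Other genes that act beside the phosphatases showed few calls. Of 14 inhibitory effectors, such as *Csk* and the DOK adaptors, 0 were called (median -0.19; edgeR quasi-likelihood test, with 2, *Dok1* and *Dok3*, at an unadjusted p under 0.05, where 13.8% of all genes were), 1 was by DESeq2 and 1, *Cblb*, was lower with the block (adjusted p = 0.0247). *Dok1*, an adaptor that SHIP-1 binds, had 29.7 ± 2.18 and 52.5 ± 10.4 CPM. Of 31 other tyrosine and inositol phosphatases 29 were tested and 0 called (median -0.04; edgeR quasi-likelihood test, 6 at an unadjusted p under 0.05, against the same 13.8%). With the block 2 rose and 4 were lower, among them *Inpp4b*, which removes the next phosphate from the product of SHIP-1 and had 1630.3 ± 188 CPM in ILT3- and 938 ± 179.6 in ILT3+ samples (adjusted p = 0.117, and 0.0366 with the block). DESeq2 called 2 higher and 2 lower in this list. Over all genes 4.18% rose and 2.62% were lower with the block, and 5.18% and 1.91% by DESeq2.

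Downstream of the phosphatases, 3 of 27 tested substrate and PI3 kinase pathway genes rose and 0 fell (median -0.04, edgeR quasi-likelihood test). Over all genes 1.96% rose and 0.343% fell. At an unadjusted p under 0.05 in either direction were 12 of the 27, against 13.8% of all genes (edgeR quasi-likelihood test). *Tec*, a kinase recruited by PIP3, the lipid that SHIP-1 removes, went from 16.2 ± 1.58 to 70.5 ± 10.3 CPM (SD, n = 3; log2 fold change 2.12, adjusted p = 0.00663). *Plcg2*, the phospholipase C of B and myeloid cells, went from 3.69 ± 2.48 to 73.4 ± 9.26 CPM (4.28, adjusted p = 0.0116). *Gab3*, an adaptor that binds SHP-2, went from 14 ± 2.88 to 42.7 ± 12.1 CPM (1.61, adjusted p = 0.0428). With the block 5 rose and 4 were lower, where 4.18% of all genes rose and 2.62% were lower. Without ILT3- sample 3, 0 were called, and 1 without ILT3+ sample 2 or 3.

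None of 5 genes for reported ILT3 ligands was called (median 0.83, edgeR quasi-likelihood test), and DESeq2 called 0. At an unadjusted p under 0.05 were 3, *Itgb3*, *Apoe* and *Fn1*, against 13.8% of all genes (edgeR quasi-likelihood test). *Itgb3*, a subunit of the integrin reported to bind the receptor, had 36.6 ± 5.01 CPM in ILT3- and 65.0 ± 18.6 in ILT3+ samples (adjusted p = 0.208). *Apoe* had 200.2 CPM in ILT3+ sample 1, the library with the macrophage genes, and 11.5 and 12.2 in ILT3+ samples 2 and 3.

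The genes whose profile over the 6 samples was closest to that of *Lilrb4*, by root mean square difference of centred log2 CPM among 8493 genes of at least 10 CPM on average, were *Ablim3* (0.50), *Il1r1* (0.57), *Tmem51* (0.61), *Abi3bp* (0.62) and *Cx3cl1* (0.70). The measure is in log2 units, and the 6 samples share the sort. *Lilrb4* is the sort gene, so only genes with a large rise in ILT3+ samples can be close to it. The ranking is therefore a description and tests nothing. The genes named had ILT3- means of 0.437 to 2.78 CPM, so they met the 10 CPM average only through the ILT3+ samples. *Il1r1*, the interleukin receptor, had 1.15 ± 0.663 CPM in ILT3- and 48.9 ± 6.69 in ILT3+ samples. By the same measure *Gp49a* was at 1.54, with 66 genes closer, and *Inpp5d*, *Ptpn11* and *Ptpn6* were at 2.91, 3.13 and 3.51.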

How the data were processed

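Per the labels' protocols, RNA of the 6 sorted samples was amplified as full-length cDNA (SmartSeq V2) and made into Nextera XT libraries. The authors deposited read counts per gene in columns for total and unique gene, exon, intron and junction reads, per the file headers; lengths and positions are deposited beside them. Per the submitters' processing notes the build is GRCm38. Which aligner, counter, annotation and strand setting were used is not given in the sources used here. All libraries differed by more than sampling noise.

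Counts of all genes were fitted with edgeR 4.0.16 (R 4.3.3; TMM, default filter with minimum count 10 and total 15, robust quasi-likelihood, group only), adjusted by Benjamini-Hochberg at 0.05. SE and 95% intervals come from the F statistic. The read kind by group term was fitted with each sample as a block, for genes with at least 10 intron reads. Alternatives were other count columns, RLE, no filter, DESeq2 1.42.0, the block and left-out libraries. The tests were tested on simulated data. Both groups use the same sample numbers. For equal numbers, the correlation of deviations from group means was 0.362, 0.236 and 0.248, which met the rule for pairing (all over 0.1), so the block is given beside results it changes, while the main fit stays unblocked; the pairing comes from the data, not from the labels. The crossed pairs of numbers 2 and 3 (0.143 and 0.106) also exceeded 0.1.

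Of 214 list symbols 202 matched by name and 5 by a RefSeq synonym, and 7 did not match. Genes named are the 5 members and up to 4 of each pathway list by smallest p. Also named are the 5 closest to *Lilrb4* and the 2 most abundant of each marker list. *Cd5*, *Inpp4b*, other called marker genes, family and marker genes given by reads and genes called only with the block were named after their values were seen. Some genes that this rule names are not reported here. The members and lists were chosen with earlier results of these data known. Copy sequences were read from GENCODE release 21 (GRCm38).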

Additional observations from a re-analysis of the deposited data

How the results depend on the processing

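*Lilrb4* was called in all 17 alternatives (log2 fold change 5.89 to 7.44) and *Inpp5d* in 0 of 16 (0.40 to 0.53). *Gp49a* passed on total exon reads (5.31), unique exon reads (6.31), unique gene reads (6.32), without the filter (5.0), with DESeq2 (4.98), without both samples numbered 1 (5.50) and on unique junction reads (6.27, chosen after seeing the data). With each library left out it stayed at 4.36 to 5.72 and was not called. *Ptpn6* passed with DESeq2 (-0.82). With the replicate block, which pairs equal sample numbers, *Gp49a* (5.10) and *Ptpn6* (-0.78) passed, and 932 genes were called in place of 316; it changed the call of no other of the 5 genes. *Ptpn11*, at 0.00, was -0.28 on intron reads, -0.00 with RLE scaling and with DESeq2, -0.01 with the block and -0.14 to 0.19 with libraries left out. The exon minus intron change of *Ptpn6* ranged over -0.21 to 0.29 and that of *Inpp5d* over -0.14 to 0.23 with libraries left out, and *Inpp5d* was at -0.05 without both samples numbered 1. Called genes numbered 204 on unique exon reads, 78 on intron reads, 157 on unique junction reads, 948 with DESeq2, 786 without both samples numbered 1 and 31 to 322 with libraries left out. The causes of these shifts were not tested. With 3 samples a group no exact permutation test can go below p = 0.1, and ILT3- values of *Gp49a* rest on 19 reads.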
